A study of Gallus gallus with 4 samples.

Results

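The genes described here belong to T cells, and they were read in a B cell line. They are CD3D, CD3E and CD247 of the T cell receptor complex, the kinase gene ZAP70, the coreceptor gene CD8A and the transcription factor gene GATA3. Every probe set that the platform annotation gives to 1 of these symbols alone was taken, which yielded 7 probe sets for 6 of the 13009 named genes, among 38439 probe sets other than controls on a chicken expression array. The genes were chosen by their signals on these same arrays, where CD3D is bright, so the levels below are a description and carry no test.

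The cells were chicken DT40, an established B lymphoma line from the bursa, carrying a conditional knockout of Arp6 (gene symbol ACTR6), a nuclear actin-related protein of the SRCAP chromatin remodelling complex. In all 4 cultures, part of the ACTR6 gene had been replaced by histidinol or puromycin resistance cassettes driven by a beta-actin promoter, and Arp6 came from a transgene that tetracycline shuts off. The arrays were day 0 (no tetracycline, Arp6 on) and days 2, 4 and 6 in 2 ug/ml tetracycline (Arp6 off). There was 1 array per day, no array without tetracycline after day 0, and nothing in the labels on whether the line is a clone or which promoter drives the transgene. The arrays ask how gene levels differ once the Arp6 transgene is shut off. Loss of Arp6, tetracycline and time in culture cannot be told apart, and with no replicates every ratio compares 2 arrays without an error and without a test.

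T cells recognise antigen through a receptor whose own chains cannot signal. The CD3 chains (gamma, delta and epsilon) and the zeta chain, CD247, carry the activation motifs that LCK phosphorylates, ZAP70 then docks on those motifs, and CD4 or CD8 holds LCK near the receptor. In chickens the gene named CD3D corresponds to both CD3G and CD3D of mammals. GATA3 directs early T cell development and the helper type 2 fate. B cells use a receptor of the same design, with CD79A and CD79B in place of CD3 and SYK in place of ZAP70.

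The labels were checked first. Of the 2 ACTR6 probe sets, one read 7002 before tetracycline and 318, 331 and 383 on the later arrays in order, in signals scaled so that the 4 arrays share a median. The other ACTR6 probe set read 7086 at day 0 and was below background on every later array. The first stayed above background there, at 12.8, 10.3 and 8.34 times it. Background means the 95th percentile of the control probe sets for which nothing was added to the sample, at scaled signals of 25.4, 24.9, 32.1 and 45.9 on the 4 arrays. Of 20 measured B cell markers, 18 were above background at day 0, PAX5 (84.9), CD79B (2051) and IRF4 (3858) among them, and BLK was below it on all 4 arrays. Of 12 measured T cell markers, 5 were above background at day 0 and 6 were above it on no array, namely CD3E, LCK, CD4, CD28, CD2 and CD5. Each gene was counted by 1 probe set. That of CD8A was below background at day 0 (20.9), while its other probe set was above it (47.3). The summed signal of the T cell markers was 2800, 2422, 1657 and 1151 at days 0, 2, 4 and 6, and without CD3D it was 418, 402, 419 and 240.1. Markers of other cells were above background at day 0 for 6 of 10 macrophage and granulocyte genes, 2 of 5 erythroid and thrombocyte genes and 4 of 11 fibroblast and endothelial genes. Of all named genes 68.1% were above background at day 0, a larger share than in each of these lists. On all 4 arrays the count was 1 in each of these lists, against 2 of the 12 T cell markers and 14 of the 20 B cell markers. Of all 13009 named genes 6659 were above background on all 4 arrays. How many of them were above background on no array was not counted.

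CD3D was the member with a strong signal on every array, and that signal was lower with each later array. The gene was read by 1 probe set, with no second one to compare. As deposited it read 2772 at day 0, 2101 at day 2, 1216 at day 4 and 767 at day 6. After scaling the values were 2382, 2020, 1238 and 911, highest at day 0 and lowest at day 6. CD3D stayed 19.8 times above the array's background at day 6, against 93.7 times at day 0. Part of that gap is the background itself, at 25.4 on day 0 and 45.9 on day 6. The scaled CD3D signal was 1.18-fold lower at day 2, 1.92-fold lower at day 4 and 2.62-fold lower at day 6 than at day 0. On the log2 scale these are -0.24, -0.94 and -1.39. From one array to the next the steps after day 2 were -0.71 and -0.44. In a culture, fewer cells that make a transcript and less transcript per cell cannot be told apart.

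How scaling was done changed the size of the CD3D difference and not its direction. At day 6 the log2 ratio was -1.86 in the deposited values unscaled, -1.42 once quantile-normalized and -1.16 when spike-in controls set the scale. At day 4 it was -1.19 unscaled and -0.58 with spike-in scaling. Over all tested genes the median log2 ratio stood at -0.01, 0.0033 and -0.0091 at days 2, 4 and 6 with the scaling used, and at -0.48 at day 6 without scaling, so each ratio is relative to the median gene. Of the 8026 tested genes 681 were 2-fold higher and 670 lower at day 6, against 263 and 1603 in unscaled values and 985 and 471 with spike-in scaling. Among the 16658 probe sets bright enough to be kept, 28.1%, 6.87% and 4.53% had a log2 ratio as low as that of CD3D at days 2, 4 and 6. A signal lower at each step from day 0 to day 6 was seen in 8.60% of them.

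CD247, the zeta chain, likewise read by 1 probe set, was also above background on all 4 arrays. At day 6 it was only 1.56 times above it, and below the brightest control with nothing added on that array (73.3). It read 245, 227, 171 and 60.3 as deposited at days 0, 2, 4 and 6, and 211, 218, 174 and 71.6 after scaling. The first 3 arrays lay close together and day 6 lay apart from them. CD247 was 1.03-fold higher at day 2, 1.21-fold lower at day 4 and 2.95-fold lower at day 6 than at day 0. Its day 6 log2 ratio of -1.56 was matched or passed by 3.37% of the kept probe sets, and ranged from -2.03 to -1.25 under the other scalings and floors tried. The small differences at days 2 and 4 changed sign with spike-in scaling, to -0.04 and 0.09. Most of the CD247 difference lay between days 4 and 6 (-1.28 on the log2 scale), whereas CD3D was already at -0.94 by day 4.

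CD3E, the epsilon chain that pairs with the other CD3 chain in the receptor, was below background on every array. Its scaled signals were 23.5, 24.2, 7.75 and 14.8 at days 0, 2, 4 and 6, so no fold is given. Of all probe sets other than controls, 32.7% were above background on no array and 33.5% on all 4, and 51.4%, 49.7%, 50.3% and 41.3% on days 0, 2, 4 and 6. One probe set stands for CD3E, and a probe set that reads low does not show that its transcript was missing.

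ZAP70, the kinase that binds phosphorylated CD3 and zeta chains, gave a dim signal with 1 high array. Its scaled signals were 35.3, 28.1, 78.0 and 36.3 at days 0, 2, 4 and 6, above background except at day 6, where the background was highest (45.9). Day 4 was the highest, 2.21-fold above day 0, while day 6 was at a log2 ratio of 0.04 with its signal below background. The day 4 ratio of 1.14 was 0.90 without scaling, 0.99 after quantile normalization and 1.51 with spike-in scaling. The suffix of the ZAP70 probe set (s_at) marks, in the manufacturer's naming, probes that may match transcripts of more than 1 gene.

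CD8A, the alpha chain of the CD8 coreceptor, had 2 probe sets that went opposite ways near background. The one with the s_at suffix read 47.3, 38.7, 19.3 and 8.35 on the 4 arrays in order, the last 2 below background. It was at least 1.47-fold lower at day 4 and at least 1.03-fold lower at day 6, the bounds being set by the background of those arrays. The other CD8A probe set read 20.9, 28.4, 27.0 and 49.4, with days 0 and 4 below background. Its day 6 signal exceeded that of day 0 at least 1.94-fold. No direction can be given for CD8A from this pair.

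GATA3 lay just above background on the first 3 arrays and below it on the last, where the background was highest (45.9). Its scaled signals were 34.0, 31.7, 49.1 and 38.7 at days 0, 2, 4 and 6. Day 4 was the highest, 1.44-fold above day 0, and day 2 was 1.07-fold lower than day 0. At day 2 and day 6 the sign of its log2 ratio changed under at least 1 other scaling.

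**Figure D1:**
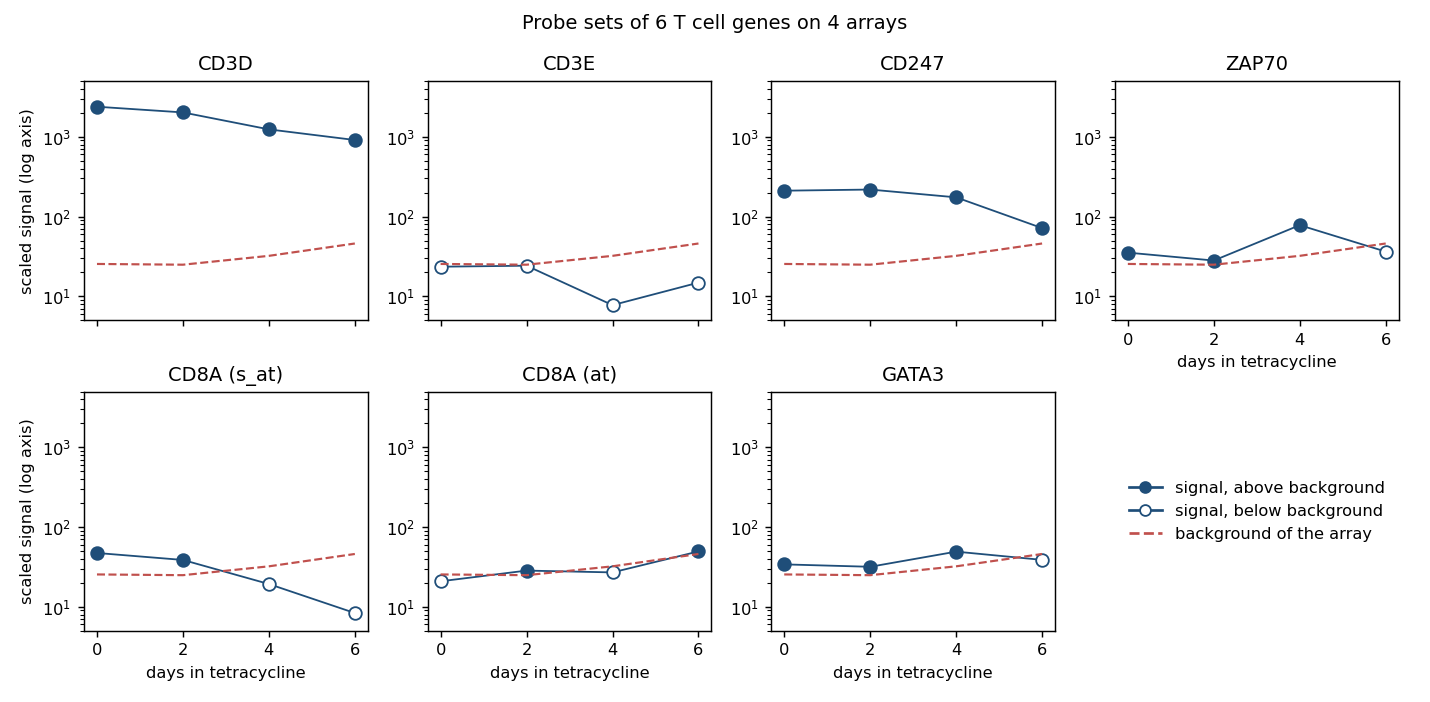
Scaled signal (log axis) of the 7 probe sets against days in tetracycline, 1 point per array, filled where the signal was above the background of that array (dashed line) and open where below. CD3D and CD247 lie above the line on all 4 arrays and are lowest at day 6 (911 and 71.6), CD3E lies below it throughout, and the other probe sets lie near it.

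Counted with a 2-fold threshold, signals under 19.4 being set to that floor first, 5 of the 7 probe sets were bright enough on average to be kept. The 2 left out were CD3E and the s_at probe set of CD8A. At day 2 none of the 5 differed 2-fold from day 0, where 3.57% of all kept probe sets were higher and 3.89% lower. At day 4, 1 was higher (ZAP70) and 0 were lower, against 7.65% and 5.97% of all kept probe sets. At day 6, 2 were lower (CD3D and CD247) against 8.51% of all kept probe sets, and 1 was higher (CD8A) against 10.8%. The CD8A probe set had a day 0 signal below background and a bound under 2-fold, and passed the filter only through its day 6 signal. These 3 comparisons share the day 0 array. The split at days 4 and 6 depended on the scaling, with 0 higher and 1 lower at day 4 in unscaled values (CD3D at -1.19) and 0 higher and 2 lower at day 6 in unscaled and quantile-normalized values. Without the filter on dim probe sets 3 of 7 were lower at day 6, against 5.71% of all probe sets, the third being the s_at probe set of CD8A with its bound of 1.03-fold.

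CD3D and CD3E are neighbours on chromosome 24 in the RefSeq gene order of assembly GRCg7b, and only CD3D gave a signal above background. On the CD3E side, the next measured genes MPZL2 and MPZL3, which encode adhesion proteins of the myelin protein zero-like family, exceeded background at day 4 alone, at 39.7 and 43.4. The other MPZL2 probe set was below background on every array. On the other side came ZW10, of the kinetochore and of membrane transport, with 694, 663, 488 and 556 at days 0, 2, 4 and 6, and ARCN1, a subunit of the coatomer, with 2804, 2766, 2775 and 3257. Both were above background on all 4 arrays. Their day 6 log2 ratios were -0.32 and 0.22, and those of their further probe sets were 0.12 for ZW10 and -0.38 and 0.59 for ARCN1. IFT46, of intraflagellar transport, read 89.7, 96.3, 69.6 and 35.5, the last under background and at least 1.95-fold lower than on day 0. SCN2B, the sodium channel subunit gene beyond MPZL3, read 35.3, 61.9, 8.91 and 83.3, with day 4 below background. Of its other probe sets, one was below background on every array and another exceeded it at day 6 alone. At day 6 CD3D stood at -1.39 on the log2 scale, IFT46 at -1.34 by its floored signal, and ZW10 and ARCN1 nearer to 0.

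**Figure D2:**
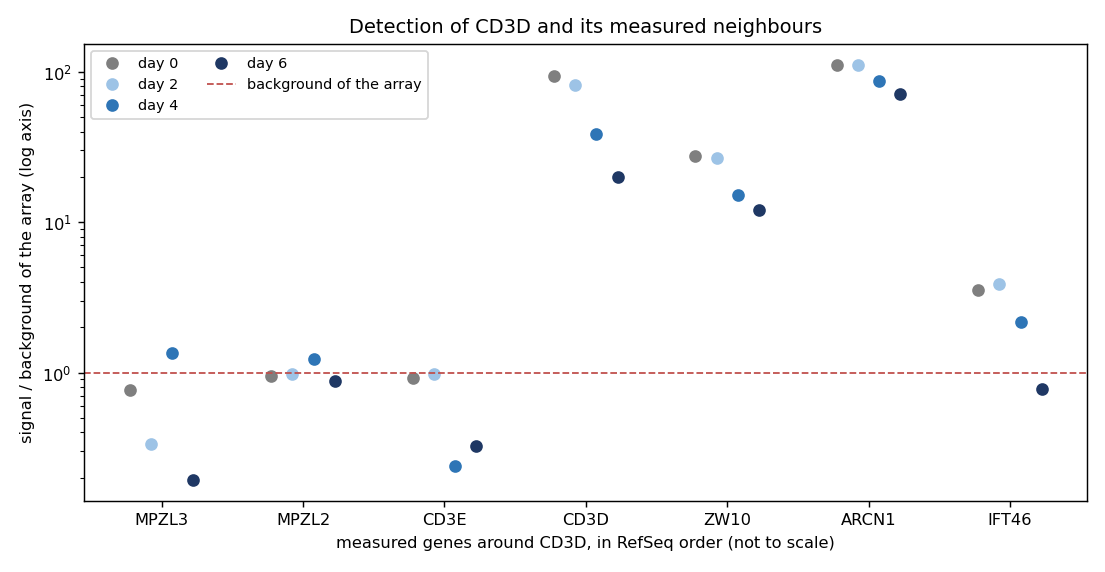
Signal divided by the background of the same array (log axis) for CD3D and the 3 nearest measured genes on each side, in gene order and not to scale, 1 point per array from day 0 to day 6. CD3D, ZW10 and ARCN1 lie above 1 (dashed line) on all 4 arrays, CD3E below it on all 4.

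Around GATA3, on chromosome 1, the nearest measured gene was TAF3, 3 genes away. TAF3, a subunit of the general transcription factor TFIID, read 268, 263, 332 and 293 at days 0, 2, 4 and 6. Then came ATP5C1, of the mitochondrial ATP synthase, with 2758, 3050, 3663 and 3072. Both genes were above background throughout by the probe set used for each. Of the 6 TAF3 probe sets, one exceeded background at days 2 and 6 alone and another at day 4 alone. KIN, a DNA-binding protein gene, was below background at day 0 and read 43.1, 41.8 and 72.6 at the later days. The other KIN probe set was below background on every array. CELF2, an RNA-binding splicing regulator, was 2.45-fold lower at day 6 than at day 0 (-1.13 on the log2 scale by its second probe set). ECHDC3 was 2.57-fold lower at day 6, and USP6NL 2.37-fold lower at day 4, though the other USP6NL probe set was below background on every array. On this side the measured genes lie far off, CELF2, USP6NL and ECHDC3 being 13, 15 and 16 genes from GATA3.

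The other genes of the T cell receptor pathway were read through a list of 36 genes, of which 26 had a probe set with 1 gene symbol and 16 were bright enough to test. Of those 16, 1 was higher and 2 lower at day 2, 3 higher and 3 lower at day 4 (4 and 0 with spike-in scaling, 1 and 4 unscaled), and 1 higher and 5 lower at day 6. Over all 8026 tested genes, the share higher was 2.42%, 5.77% and 8.48% on days 2, 4 and 6 and the share lower 2.97%, 5.12% and 8.35%. At day 4, 1016 of all tested genes were higher and 198 lower with spike-in scaling, and 286 and 740 unscaled. The list's median log2 ratio was -0.05, 0.11 and -0.04, and the last 2 changed sign under another scaling (-0.14 unscaled at day 4, 0.18 with spike-in scaling at day 6).

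LCK, the kinase that starts T cell receptor signalling, was below background on all 4 arrays, its highest scaled signal being 4.89. PAG1, TXK, GRAP2, TRAT1 and THEMIS, adaptors and a kinase of T cells, were below background on all arrays as well. The adaptor gene LCP2, too dim to be tested, exceeded background only at day 6, at 61.8. There it was at least 2.43-fold higher than at day 0, though below the brightest control with nothing added (73.3). UBASH3A, a phosphatase of T cells, exceeded background only at day 4, at 82.3. SH2D2A exceeded it only at day 0, at 28.3.

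Beside CD3D and CD247, the genes of the list counted as lower at day 6 were SYK, PTPN6 and CSK. SYK, the B cell counterpart of ZAP70, read 1331, 840, 958 and 429 at days 0, 2, 4 and 6 and was 3.10-fold lower at day 6 than at day 0, its second probe set standing at -1.83 on the log2 scale. PTPN6, the phosphatase SHP-1, read 724, 493, 321 and 227 and was 3.18-fold lower at day 6. CSK, which restrains SRC family kinases, read 105, 85.6, 51.8 and 15.1, the last below background and at least 2.29-fold under day 0. All 5 read lowest at day 6, the day by which they were picked, so this is no separate result.

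FYN, an SRC family kinase of both lineages, read 137 at day 0 and 50.9, 60.9 and 85.6 afterwards. Its second probe set gave log2 ratios of -0.93, 0.30 and 0.02. PRKCQ, the T cell kinase PKC theta, was at least 2.20-fold lower at day 2, with a signal below background, and 1.58-fold higher at day 6. RASGRP1, which activates RAS downstream of the receptor, was higher by 2.19-fold on day 2, 2.06-fold on day 4 and 1.27-fold on day 6, its second probe set being at 0.92, 1.25 and 0.94 on the log2 scale. PLCG1, the phospholipase that ZAP70 signalling engages, gave no single direction over its 5 probe sets. The one used for the gene did not reach background on day 0 and was at least 6.58-fold higher on day 4 and 3.25-fold on day 6. Of the other 4 one also stood higher (2.07, 2.08 and 0.98, though below background at days 0 and 6), another exceeded background at day 0 alone (44.5) and stood at -1.20, -0.89 and -1.20, and 2 were below background on all arrays.

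Other genes of the list that were above background throughout differed less than 2-fold by the probe set used for each. PTPRC, the phosphatase CD45, read 2002, 2353, 2789 and 2602 at days 0, 2, 4 and 6. GRB2, an adaptor, had log2 ratios between -0.12 and 0.08. The adaptor gene SLA was at 0.73 at day 6, CBLB, a ubiquitin ligase, at 0.58, BCL10 at -0.24 and UBASH3B at 0.24. Further probe sets differed from these, with one of CBLB at least 2.36-fold lower at day 2, one of UBASH3B at least 1.99-fold lower at day 6, and those of BCL10 at 0.34 and at least 2.20-fold higher at day 6.

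The list of T cell coreceptors and surface molecules held 27 genes, 20 of them measured and 6 tested. At day 0, 5 of the 20 were above background, against 68.1% of all named genes, and 10 were above it on no array, CD4, CD28, CTLA4, ICOS, LAG3 and the interleukin 2 receptor gene IL2RA among them. CD8A counts as below background at day 0 by the probe set used, though its other probe set was above it. None of the 6 differed 2-fold at day 2, where 2.42% of all tested genes were higher and 2.97% lower. At day 4, where 5.77% were higher and 5.12% lower, 1 of the 6 was lower. This was CD8BP, a CD8 beta chain gene, which read 58.5, 43.2, 19.7 and 33.7 at days 0, 2, 4 and 6. It was below background at days 4 and 6, and its bound at day 4 was 1.82-fold, under the threshold. At day 6, 2 were higher and 2 lower, where 8.48% of all tested genes were higher and 8.35% lower. Of these 4 genes CD8A and SLAMF1 have bounds under 2-fold, and CD8A passed the filter only through its day 6 signal. In unscaled values 0 were higher and 3 lower at day 6, against 263 and 1603 of all 8026 tested genes.

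IL2RG, the chain shared by several cytokine receptors, read 1372, 1137, 883 and 420 at days 0, 2, 4 and 6, the lowest at day 6, and was 3.27-fold lower there than at day 0. SLAMF1, a surface receptor of lymphocytes, was at least 1.85-fold lower at day 6, where it was below background. TNFRSF9, the costimulatory receptor 4-1BB, read 284, 474, 517 and 645 and was 2.27-fold higher at day 6, with its other probe sets at 0.77 (below background at days 0 and 6) and 1.16 on the log2 scale. The second gene counted as higher at day 6 was CD8A, described above. PDCD1, the receptor PD-1, was at 0.54 at day 6 and its other probe sets at 1.07 and 1.10. IL7R and CCR7, both too dim to be tested, did not reach background on day 0. By 1 of 4 and 1 of 2 probe sets their day 6 signals were higher, at least 2.09-fold for IL7R and 1.99-fold for CCR7. CD7, also too dim to be tested, was at least 2.66-fold higher at day 6. The day 6 signals of IL7R, CCR7 and CD7 were 53.1, 50.7 and 67.7. All lay below the brightest control with nothing added on that array (73.3). Without the filter, 10.2% of all probe sets were 2-fold higher at day 6.

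Among T lineage transcription factors, 22 of 31 listed genes were measured and 14 tested. At day 0, 16 of the 22 (72.7%) were above background, close to the 68.1% of all named genes, and many of them also act in B cells. None of the 14 differed 2-fold at day 2, 1 was higher and 1 lower at day 4, and 1 was higher and 3 lower at day 6. The shares of all tested genes were 5.77% and 5.12% at day 4 and 8.48% and 8.35% at day 6. BCL11B, which commits progenitors to the T lineage, read 38.8, 30.4, 39.0 and 2.65 at days 0, 2, 4 and 6, and its other 2 probe sets were below background on all arrays. LEF1 exceeded background only at day 6, at 76.4, by 1 of 3 probe sets. SATB1, a chromatin organiser of thymocytes, exceeded it only at day 0 (48.5), its day 2 signal being lower by at least 1.95-fold. The second SATB1 probe set likewise exceeded background at day 0 alone, at 69.5.

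IKZF3 (Aiolos), a lymphoid zinc finger factor, read 321, 245, 207 and 73.6 and was 4.35-fold lower at day 6 than at day 0, but its second probe set was at 0.79 on the log2 scale. FOXO1 was 3.33-fold lower and KLF2 2.31-fold lower at day 6. TCF3, which encodes the E2A factors of both lymphoid lineages, was 2.88-fold higher at day 6 (693.8, against 240.9 at day 0), with its other probe sets at 1.02 and 0.71. RUNX1 was 2.55-fold lower at day 4 and 1.81-fold lower at day 6 (0.0011 and -0.99 on the log2 scale by its second probe set). ID3, an inhibitor of E proteins, did not reach background on day 0 and read 86.0 on day 6, at least 3.38-fold more. IKZF1, ETS1, TCF12, CBFB, NOTCH1 and ID2 were above background on all 4 arrays and within 2-fold of day 0 by the probe set used for each. In unscaled values 1 of the 14 was higher and 6 lower at day 6, against 263 and 1603 of all 8026 tested genes. With spike-in scaling 2 were higher and 2 lower, against 985 and 471.

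Of 14 measured T and NK effector genes 8 (57.1%) were above background at day 0, against 68.1% of all named genes. On all 4 arrays 4 were above it, against 6659 of all 13009 named genes. They were GNLY, CST7, TNFSF10 and EOMES, the last a T-box factor also listed among the transcription factors. EOMES lay below the brightest control with nothing added at days 0, 2 and 6, and GNLY and CST7 did at days 4 and 6. IL2, IL10, IL13, IL21 and XCL1 were above background on no array, and IL22 exceeded background only at day 2, at 35.2. IFNG, interferon gamma, was at the background level at day 0 and below it later, so no difference can be given. Of 6 tested genes 1 differed 2-fold at any later day, against 23.8% of all tested genes. It was EOMES, with 34.4, 26.2, 73.3 and 47.4 at days 0, 2, 4 and 6 and a day 4 signal 2.13-fold above day 0. TNFSF10 (TRAIL) stood at -0.20, 0.05 and -0.54 and CST7 at -0.17, 0.43 and 0.38 on the log2 scale. The 7 probe sets of TNFSF10 did not share 1 pattern, with day 6 log2 ratios from -1.73 to 1.19.

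Over the 4 lists together, 44, 46, 45 and 40 of 81 measured genes were above background on days 0, 2, 4 and 6 (54.3%, 56.8%, 55.6% and 49.4%), against 68.1%, 66.8%, 67.0% and 58.6% of all named genes. Of the 81, 41 were tested. Of these 1 was higher (2.44%) and 2 lower (4.88%) at day 2, against 2.42% and 2.97% of all tested genes. At day 4, 4 were higher (9.76%) and 5 lower (12.2%), against 5.77% and 5.12%. At day 6, 4 were higher (9.76%) and 10 lower (24.4%), against 8.48% and 8.35%. CD8A, among the 4 higher at day 6, was kept by the filter only through its day 6 signal. PLCG1, counted as higher at days 4 and 6, gave no single direction over its probe sets. Of the 5 lower at day 4, CD8BP has a bound of 1.82-fold, and FYN and RUNX1 were not lower by their second probe sets. Of the 10 lower at day 6, SLAMF1 has a bound of 1.85-fold, and IKZF3 was higher by its second probe set. The 10 lower genes were CD3D, CD247, SYK, PTPN6, CSK, IL2RG, SLAMF1, IKZF3, FOXO1 and KLF2. They are not all specific to T cells, and SYK is also among the B cell markers. Of the 17 tested B cell markers 11 were lower at day 6. The lists were written with earlier results of these arrays known, so the counts are a description. In unscaled values the split was 1 higher and 6 lower at day 4, against 286 and 740 of all 8026 tested genes. At day 6 it was 2 higher and 18 lower unscaled, against 263 and 1603. After quantile normalization it was 2 and 5 at day 4, against 388 and 500. With spike-in scaling it was 6 and 1 at day 4, against 1016 and 198. The median of the 41 genes, -0.10, 0.05 and -0.12, changed sign at day 4 without scaling (-0.19) and at day 6 with spike-in scaling (0.10).

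**Figure D3:**
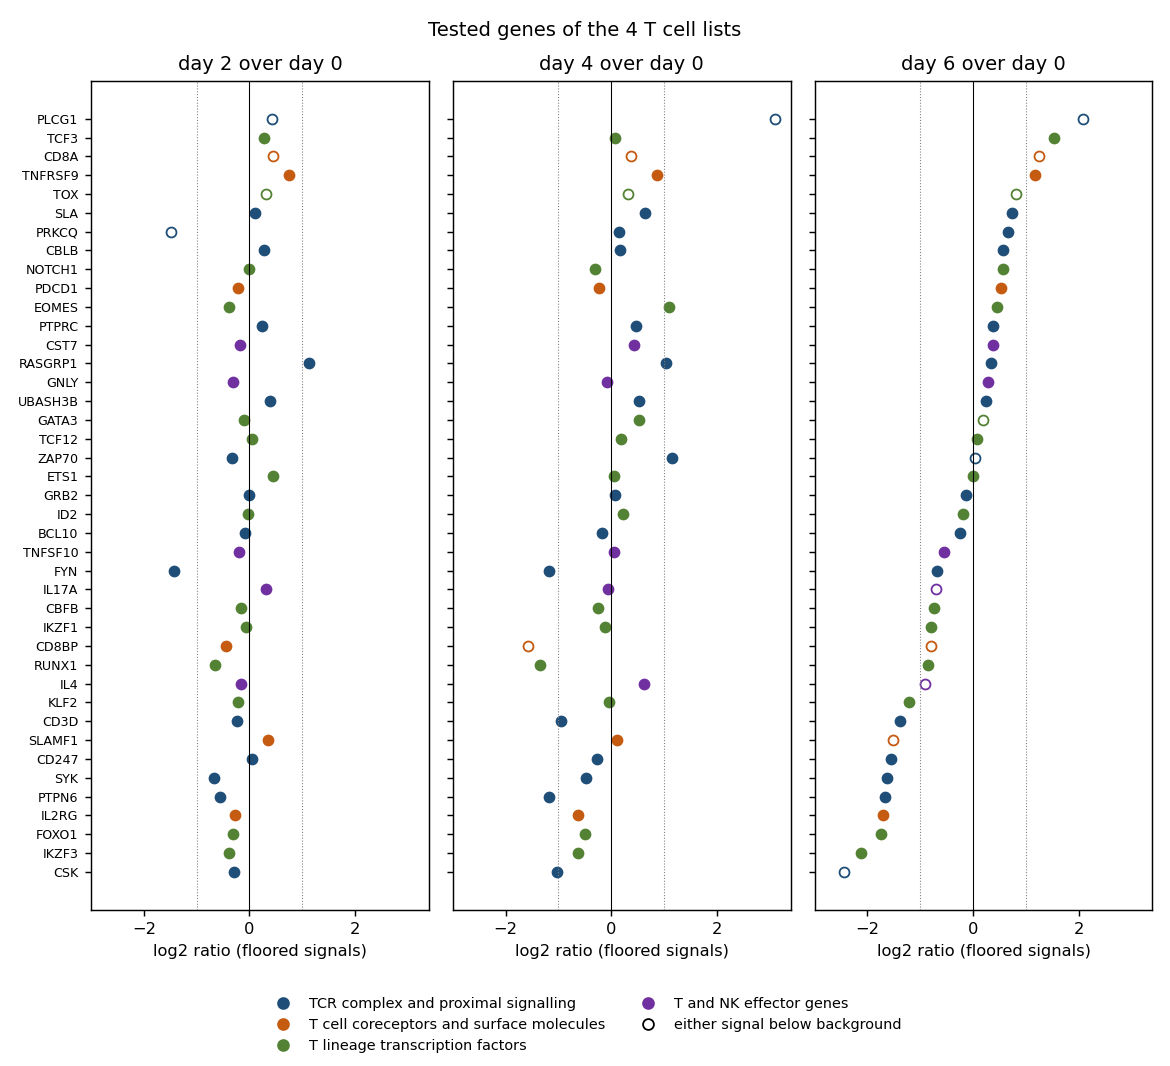
Log2 ratio to day 0 of the 41 tested genes of the 4 T cell lists at days 2, 4 and 6, ordered by the day 6 ratio, with dotted lines at 2-fold and open points where either signal was below background. At day 6, 4 genes lie to the right of the 2-fold lines and 10 to the left, CD3D and CD247 among them.

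Of 17 tested B cell markers, 3, 6 and 11 were at least 2-fold lower at days 2, 4 and 6 and 0 were higher (1 at days 4 and 6 with spike-in scaling), with median log2 ratios of -0.66, -0.88 and -1.63. Of all tested genes 2.97%, 5.12% and 8.35% were lower. CXCR5, among the 11 markers lower at day 6, was below background there, with a bound of 1.30-fold. CD74, chaperone of MHC class II molecules, stood at -0.69, -2.24 and -5.01, SPI1 at -1.17, -2.95 and -4.18 with its day 6 signal below background, and CD72 at -0.93, -2.66 and -3.59. CD79B, which does in the B cell receptor what the CD3 chains do in T cells, stood at -0.38, -0.88 and -2.47, while IRF4 stood at 0.35, 0.47 and 0.16 and BANK1 at 0.75, 0.88 and 0.98. CD3D (-0.24, -0.94 and -1.39) and CD247 (0.05, -0.28 and -1.56) were nearer to day 0 than the markers' median at day 2, and both lay within the markers' range at all 3 days. SYK stands on both kinds of list. What part the lower B cell markers have in the ratios of CD3D and CD247 was not tested.

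**Figure D4:**
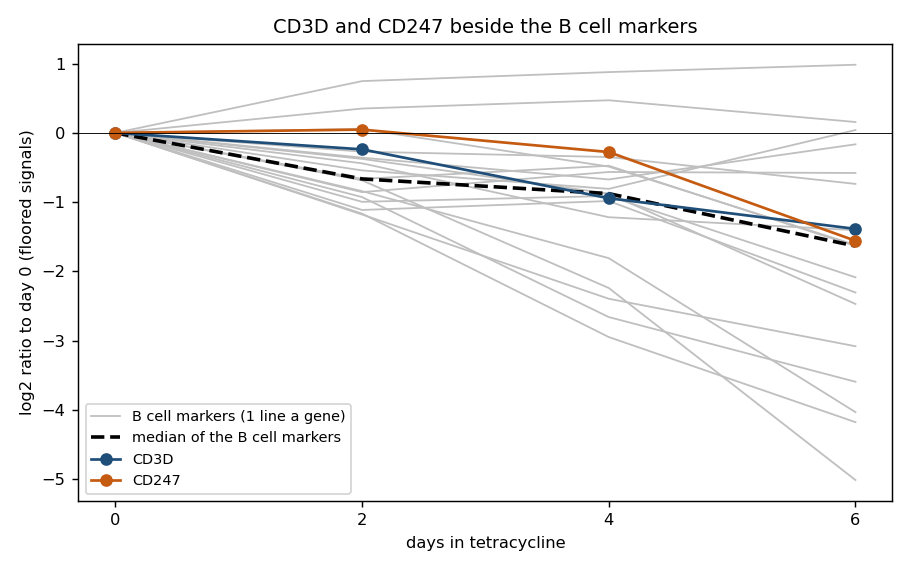
Log2 ratio to day 0 against days in tetracycline for CD3D, CD247 and the 17 tested B cell markers (grey, 1 line a gene; dashed, their median), 1 array per day. CD3D and CD247 end at -1.39 and -1.56, beside a marker median of -1.63 and a lowest marker, CD74, at -5.01.

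Likeness to CD3D was ranked over the 8026 tested genes, leaving out those with provisional symbols, such as LOC, KIAA or open reading frame names. Among the rest, the 5 genes whose pattern over the 4 arrays was most like that of CD3D were LCA5, NRDE2, DTD2, PRCP and PTRHD1. Likeness was the distance between log2 signals after subtracting each gene's own mean. The distances ran from 0.06 for LCA5 to 0.14 for PTRHD1, over 4 arrays. Their day 6 log2 ratios were -1.42, -1.46, -1.25, -1.52 and -1.29, with the signals of LCA5 and NRDE2 below background at day 6. DTD2 clears wrongly charged transfer RNAs and PRCP is a lysosomal carboxypeptidase, and a second probe set of PRCP stood at 0.60, 0.32 and -0.06. Each likeness rests on 4 points and was not tested.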

How the data were processed

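Biotin-labelled RNA of 1 culture per day (days 0, 2, 4 and 6) was read on the Affymetrix chicken genome array, per the labels' protocols. The authors deposited an intensity for every probe set, unlogged, from GeneChip Operating Software 1.3 (per the series' design text); the algorithm and the scaling behind it are not stated in the labels.

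Of 38535 probe sets, 96 controls were left out. Those whose mean log2 intensity reached the overall median (29.1) were kept, 16658 in all. Arrays were brought to 1 median over these by factors of 0.859, 0.962, 1.02 and 1.19. For log2 ratios, scaled signals below the 40th percentile (19.4) took that value; folds used scaled signals. The 95th percentile of 59 unspiked controls served as background, and a fold with its dimmer signal under background is a bound set by that level. In the platform annotation 27168 probe sets had 1 symbol, 177 several, and 11094 were unlisted. The kept probe set of highest mean stood for a gene, which left 8026 tested genes. RefSeq's table for GRCg7b gave chromosomes and gene order. With 1 array per day no statistical test was possible, and genes were counted at 2-fold. The number of arrays limits the precision. Scaling and counting were tested on simulated data.

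The members and lists were chosen with earlier results of these data known. Named were all member probe sets; list genes above background on all arrays or 2-fold different; the 3 of each list with the largest mean ratios; the 3 B cell markers brightest at day 0; the 3 nearest measured genes on each side of CD3D, CD3E and GATA3; and the 5 genes most like CD3D. Other list genes were named after their values were seen. Genes with provisional symbols were left out of the ranking by likeness to CD3D. Alternatives changed the scaling, floor, filter, threshold, probe set choice and background; counting with bounds was added after seeing the data. Python 3.11.15, numpy 2.4.6, pandas 2.3.3 and matplotlib 3.10.9 were used.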

Additional observations from a re-analysis of the deposited data

How the results depend on the processing

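No paired analysis was possible because each day has 1 array, and for the same reason no array could be left out. Of 157 recounts 103 stayed within 1.5 times the reported count. These include counts of 0 that stayed 0, as for the members at day 2 in every setting. Of 147 recomputed log2 ratios of the members 128 kept their sign, 10 changed it and 9 were 0, both signals being at the floor. The ratios of CD3D were below 0 at all 3 days in every setting tried. Changes of the floor could not move them, since CD3D was far above each floor. The causes of the other moves were not tested. Signal over background limits CD3E, CD8A, ZAP70 and GATA3, and CD247 at day 6.

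For the members, the 1 higher probe set at day 4 and the 1 at day 6 became 0 in unscaled values, after quantile normalization, with a floor at the 60th percentile, with a pseudocount, with a filter at the 75th percentile and at 3-fold, and that of day 6 also with bounds. Day 4 had 1 lower in unscaled values, without a filter and at 1.5-fold. Day 6 had 0 lower at 3-fold. Probe sets above background on all arrays, 2 as reported, were 1 against the highest unspiked control or the 75th percentile of all probe sets and 4 against their median. The 1 was CD3D, and CD247 dropped out.

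For the genes of the T cell lists, the day 2 count of 1 higher became 0 in unscaled values, with a pseudocount and at 3-fold, and 2 at 1.5-fold or with probe sets averaged. The 2 lower became 1 with the higher floor or a pseudocount, 0 with the stricter filter or at 3-fold, and 4 at 1.5-fold. At day 4 the 4 higher became 1 in unscaled values, with a pseudocount, with the stricter filter and at 3-fold, 2 after quantile normalization or with the higher floor, 8 without a filter and 7 at 1.5-fold. The 5 lower became 1 with spike-in scaling, 2 with a pseudocount or the stricter filter, 8 at 1.5-fold and 0 at 3-fold. At day 6 the 4 higher became 2 in unscaled values, with the higher floor or with the stricter filter, 11 without a filter, 7 at 1.5-fold and 1 at 3-fold. The 10 lower became 18 in unscaled values, 17 at 1.5-fold and 6 at 3-fold. In unscaled values 1603 of all 8026 tested genes were lower at day 6. List genes above background at day 0, 44 as reported, were 26 against the 75th percentile of all probe sets and 27 where every probe set of a gene had to pass.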
